A study of Mus musculus with 18 samples.

Results

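Retinas in which rods carried a normoxia-stable form of HIF1A (nsHif1a) were compared with retinas given an eGFP control vector. The comparison used the 10 retina libraries of the 18 libraries in the series, 5 labelled for Hif1a and 5 for EGFP, and no retina library was left out. The other libraries come from a transfected photoreceptor-like cell line and were not used here. The question was which functions of the retina, beyond the known targets of HIF, rose or fell with HIF1A activity in rods.

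Both groups were wild-type mice injected under the retina with an adeno-associated virus (AAV) between postnatal days 29 and 32, and whole retinas were taken at 3 weeks post injection (wpi). Treated mice received AAV::nsHif1a, which codes for mouse HIF1A with the oxygen-regulated prolines and asparagine replaced and a Myc tag, and controls received AAV::eGFP. Both vectors had the same modified AAV2 capsid and the promoter mOP, which drives expression in rods. The RNA came from all cells of the retina, so the transduced rods were a part of what was sequenced. All mice had the injection, and an uninjected group was not analysed here. The labels give the genotype C57BL/6J, whereas the study's methods name 129S6 mice, and the sources used here do not settle which holds. The labels give no sex, and injections were not randomized according to the methods.

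HIF1A is the oxygen-regulated subunit of the transcription factor HIF1. At normal oxygen, prolyl hydroxylases (PHDs, genes Egln1, Egln2 and Egln3) mark it for degradation, and an asparagine hydroxylase limits its activity. Once stable, it binds hypoxia response elements with the core RCGTG and raises genes of glucose uptake, glycolysis, angiogenesis and oxygen sensing. Rods depend strongly on glycolysis and have the highest oxygen use of the retina, and Müller glia and microglia respond to rods under stress.

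The counts per library ranged from 12898220 to 16167522, so that 3 counts corresponded to 0.186 to 0.233 CPM, a floor for counting error only. CPM values here are counts divided by library size after TMM scaling. The libraries stood apart in a way that the labels do not give. All 5 nsHif1a libraries and eGFP libraries 1 and 2 had 19492 to 28595 counts of Xist, the transcript of the inactive X chromosome, whereas eGFP libraries 3, 4 and 5 had 1 to 3. The summed counts of the Y-linked genes Ddx3y, Eif2s3y, Kdm5d and Uty were 0 in the libraries with Xist counts and 2701 to 3509 in eGFP libraries 3, 4 and 5. The split is thus that of female and male tissue, with 3 of the 5 control libraries and none of the treated libraries on the male side. It is called the Xist class below, and sex and the vector are partly confounded. The share of counts on γ-crystallins, genes of the lens, was 0.0634% to 0.280% in the controls and 0.0956% to 1.82% in the treated libraries. For this reason, results are also given with the Xist class as a covariate and for the 7 libraries with Xist counts alone (2 eGFP, 5 nsHif1a). Because every treated library has Xist counts, both fits set the nsHif1a libraries against eGFP libraries 1 and 2. With the covariate, eGFP libraries 3, 4 and 5 add to the estimate of spread but not to the log2FC. The 2 fits are therefore nearly the same contrast and not separate checks.

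The counts of Hif1a, whose sequence the transgene shares, were examined first. They corresponded to 693, 657, 698, 638 and 656 CPM in the eGFP libraries and 642, 683, 729, 683 and 699.7 CPM in the nsHif1a libraries. The groups overlapped, and total Hif1a RNA did not pass the test (log2FC 0.05, SE 0.04, limma adjusted p = 0.5). The RNA of the vector was therefore not detectable as a rise of Hif1a counts in the whole retina, and the check of the labels rests on the targets below.

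Of 14305 protein-coding genes tested, 146 were upregulated (1.02%) and 45 downregulated (0.315%) with AAV::nsHif1a, at a limma adjusted p-value under 0.05 and an absolute log2 fold change (log2FC) above 0.5. Without the limit on log2FC, 496 genes were higher (3.47%) and 293 lower (2.05%). For 109 upregulated and 35 downregulated genes, all treated libraries lay on the same side of all controls, which held for 5.75% of all protein-coding genes tested. Larger changes were mostly increases, with 59 upregulated genes above a log2FC of 1 and 3 downregulated genes below -1. The median log2FC of all protein-coding genes was 0.00398, with quartiles of -0.09 and 0.10.

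A list of 85 known HIF targets held 24 of the upregulated genes and 0 of the downregulated ones, so 122 upregulated (0.858% of 14223 genes outside the list) and all 45 downregulated genes (0.316%) lay outside it. Of the 122, 42 belonged to another of the 85 lists of functions, families and cell types used here, and 80 to none. Of the 45 downregulated genes, 3 were in a list. The HIF list is not complete, so a gene outside it can still be a HIF target. Fgf2 is outside it, although the study's introduction names FGF2 among the angiogenic factors that active HIFs raise.

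**Figure D1:**
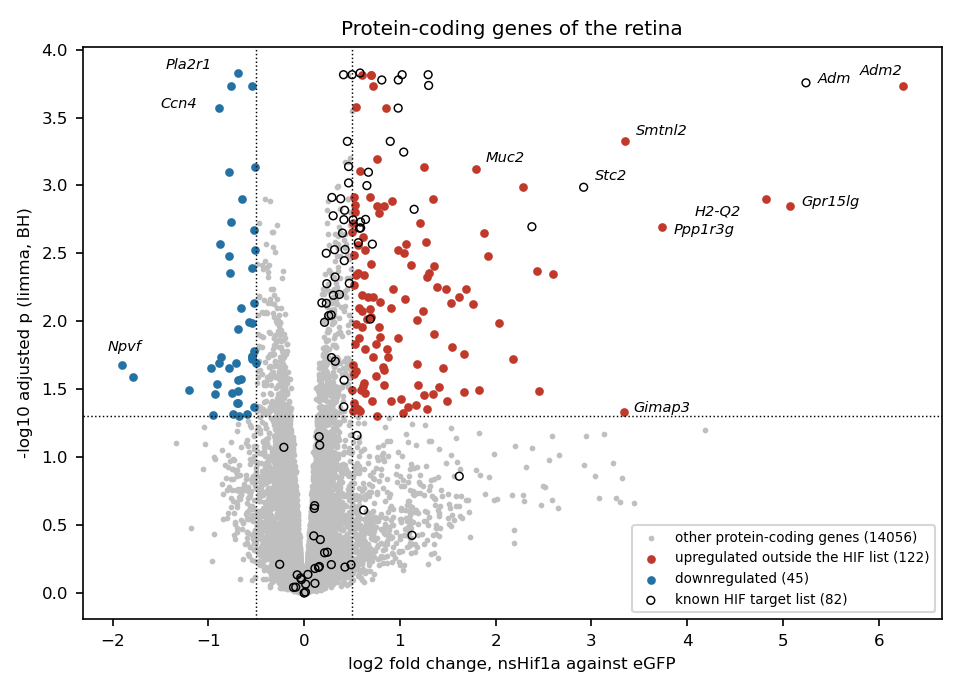
The log2FC of each protein-coding gene of the retina (horizontal axis) is plotted against the negative log10 of its limma adjusted p-value (vertical axis), with dotted lines at the thresholds. Red points are the 122 upregulated genes outside the HIF target list, blue points the 45 downregulated genes, and open circles the 82 tested HIF targets, most of which lie to the right of 0.

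The HIF targets served as the check that the vector was active, although the list was chosen with earlier results of these data known. Of the 82 tested, 75 were higher with AAV::nsHif1a and 52 of these had an adjusted p-value under 0.05, with a median log2FC of 0.41. Egln3, a PHD that HIF itself induces, had 7.49, 11.95, 8.04, 7.53 and 7.98 CPM with AAV::eGFP and 20.99, 55.5, 39.0, 42.5 and 72.5 CPM with AAV::nsHif1a. Every nsHif1a library was above every eGFP library (log2FC 2.38, SE 0.34, limma adjusted p = 0.002). Vegfa, which codes for the main angiogenic growth factor of the retina, rose from 158, 162, 159, 192 and 171 CPM to 246, 317, 285, 301 and 334 CPM, again without overlap (log2FC 0.81, SE 0.07, limma adjusted p = 1.7e-04). The other upregulated members cover oxygen sensing and feedback (Egln1, Ankrd37), glucose and lactate handling (Slc2a1, Slc2a3, Slc16a3, Pfkfb3, Ldha, Pdk1, Gys1), mitochondria and autophagy (Bnip3, Fam162a, Higd1a, Ak4), collagen and disulfide chemistry (P4ha2, Plod2, Ero1a), secreted peptides (Adm, Stc2) and the regulators Ddit4, Hilpda, Mxi1 and Sap30. With the Xist class as a covariate 23 targets were upregulated, and 19 in the 7 libraries with Xist counts.

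The 5 nsHif1a libraries did not respond alike. Library 1 had the lowest level of the 5 for 116 of the 146 upregulated genes (79.5%), against 26.3% of all protein-coding genes. Library 5 had the highest level for 93 of them (63.7%), against 26.6%. The mean log2 CPM of the HIF targets showed the same order, with 5.93 in library 1, 6.13 to 6.17 in libraries 2, 3 and 4 and 6.31 in library 5, whereas the eGFP libraries lay between 5.54 and 5.65. The order also held outside the HIF list, where library 1 was lowest for 93 of 122 genes (76.2%). Whether this follows the number of transduced rods was not tested.

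The largest increases outside the HIF list were those of genes for secreted peptides. Adm2 (GRCm39 chromosome 15, 89206923 to 89209380, plus strand), which codes for adrenomedullin 2, a vasodilating peptide related to adrenomedullin, had 0, 0, 0, 0 and 0.0753 CPM with AAV::eGFP and 1.57, 3.65, 3.48, 3.55 and 8.85 CPM with AAV::nsHif1a. The only eGFP library above 0 held a single count, so the fitted log2FC of 6.25 depends on the prior count and is no bound on the change (SE 0.60, limma adjusted p = 1.9e-04). Gpr15lg (GRCm39 chromosome 14, 36824097 to 36835979, minus strand), the ligand of the receptor GPR15, had 0.688, 0.194, 0.990, 0.661 and 0.903 CPM and 10.5, 27.9, 21.99, 23.7 and 31.6 CPM (log2FC 5.07, SE 0.68, limma adjusted p = 0.0014). For both genes the lowest nsHif1a library, library 1, was well above every control.

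Edn2 (GRCm39 chromosome 4, 120018403 to 120024557, plus strand), which codes for endothelin 2, a peptide that photoreceptors release when damaged, had 9.86, 18.7, 7.12, 7.003 and 6.78 CPM with AAV::eGFP and 22.5, 41.1, 27.4, 27.9 and 55.7 CPM with AAV::nsHif1a. eGFP library 2 was the highest control but lay below all nsHif1a libraries (log2FC 1.92, SE 0.30, limma adjusted p = 0.0033). Fgf2 (GRCm39 chromosome 3, 37402473 to 37464257, plus strand), a survival factor for photoreceptors, had 18.95, 20.6, 20.4, 17.7 and 21.98 CPM and 37.3, 87.5, 70.3, 63.9 and 135 CPM (log2FC 1.87, SE 0.27, limma adjusted p = 0.0022). No treated library overlapped the controls of Fgf2, and library 5 was the highest by a wide margin. These 3 ligands, Adm2, Edn2 and Fgf2, were the upregulated members of a list of 30 tested angiogenic ligands outside the HIF list. The list as a whole had a median log2FC of 0.01, with 16 members higher and 14 lower. The receptor gene Uts2r, for the vasoactive peptide urotensin 2, was low in all libraries but rose from 0.459, 0.388, 0.495, 0.661 and 0.226 CPM to 1.42, 2.46, 2.13, 2.182 and 2.181 CPM without overlap (log2FC 2.29, SE 0.28, limma adjusted p = 0.001).

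The sequence before the start of the most strongly raised genes was searched for the HIF core motif, ACGTG or GCGTG on either strand (CACGT or CACGC when read on the other strand). Within the 250 bases before the start annotated by RefSeq, 55.4% of 11069 tested protein-coding genes with a RefSeq promoter held it. Among HIF targets with a promoter, 71.9% of the 64 tested and 81.8% of the 22 upregulated ones did. The share was 44.7% for the 94 upregulated genes outside the HIF list with a promoter and 37.5% for 32 downregulated ones. Of the 25 genes with the largest increases outside the list, 24 were searched, 18 of these had a promoter and 6 held the motif. Adm2, Smtnl2 and H2-Q2 did not. The 4 highest of the 6 were Ppp1r3g, Gimap1, Edn2 and Fgf2. The stretches around the motif of Ppp1r3g and Fgf2 overlap annotated untranslated exon sequence and are not printed. Those of Edn2 (chr4:120018153-120018232) and Gimap1 (chr6:48715822-48715901) are shown to place the motif relative to the start of these genes, with 80 bases each, 5′ to 3′ on the plus strand, which is the strand of both genes, and with the motif in capitals. The sequences are RefSeq's promoters of GRCm38.p6 and matched GRCm39, whose coordinates are given, exactly at 1 place each. The Gimap1 stretch also overlaps exons of a lncRNA on the other strand. Neither gene was called with the Xist class as a covariate, where the log2FC was 1.25 for Edn2 and 0.68 for Gimap1, and Gimap1 was called in neither edgeR nor DESeq2.
Edn2: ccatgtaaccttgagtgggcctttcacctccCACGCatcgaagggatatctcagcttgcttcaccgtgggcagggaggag
Gimap1: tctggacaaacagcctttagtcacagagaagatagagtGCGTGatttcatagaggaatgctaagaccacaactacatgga
In Ppp1r3g the motif starts 38 bases before the RefSeq start, in Fgf2 72, in Gimap1 121 and in Edn2 219 bases. The gene coordinates in this text are those of GENCODE, whose starts can differ. The stretches of Ppp1r3g (chr13:36151809-36151888) and Fgf2 (chr3:37402692-37402771) lie inside the GENCODE range of their gene, not before it. The motif overlaps the E-box CACGTG, which 8.11% of the tested promoters held. A match describes the sequence alone, and binding was not measured.

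Beyond the glycolytic HIF targets, single metabolic genes rose while whole pathways did not. Ppp1r3g (GRCm39 chromosome 13, 36142822 to 36154371, plus strand), a subunit that brings protein phosphatase 1 to glycogen, had 0.306, 0.711, 0.743, 0.396 and 0.527 CPM with AAV::eGFP and 3.22, 10.02, 6.10, 6.82 and 10.7 CPM with AAV::nsHif1a (log2FC 3.74, SE 0.53, limma adjusted p = 0.002). Its relative Ppp1r3b rose from 3.44, 4.39, 4.27, 4.36 and 4.14 CPM to 4.95, 9.57, 8.51, 9.82 and 10.3 CPM (log2FC 1.05, SE 0.19, limma adjusted p = 0.0068). Both were without overlap between groups and were the upregulated members of 17 tested genes of glycogen metabolism, whose median log2FC was 0.01. Gls2, a mitochondrial glutaminase, had 8.25, 7.82, 9.84, 10.2 and 10.4 CPM and 13.6, 17.1, 16.5, 16.6 and 14.3 CPM without overlap (log2FC 0.76, SE 0.10, limma adjusted p = 0.0014). Further genes of this kind, grouped after their values were seen, were Adk (adenosine kinase, log2FC 0.78), Me2 (malic enzyme, 0.53), Mthfd1l and Mthfd2 (mitochondrial folate enzymes, 1.35 and 0.50), and Slc19a2 (thiamine uptake, 0.62).

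Mitochondrial pathways and fatty acid oxidation had medians near that of all genes. Of 24 genes of the TCA cycle, 38 subunits of complex I, 18 subunits of the ATP synthase and 21 genes of fatty acid oxidation, 0 were called in either direction, and 1 of these genes, a complex I subunit, had an adjusted p-value under 0.05. Their median log2FC values were -0.02, 0.06, 0.02 and 0.07. In the respiratory chain, the upregulated gene was Cox4i2, the isoform of a complex IV subunit that cells use at low oxygen, with 18.2, 21.5, 17.9, 13.8 and 14.4 CPM and 22.4, 26.5, 24.5, 24.7 and 23.99 CPM (log2FC 0.58, SE 0.11, limma adjusted p = 0.008). The call of Cox4i2 was lost with the Xist class as a covariate (log2FC 0.31).

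Dio2, the deiodinase that activates thyroid hormone, showed a pattern of its own. It had 33.7, 36.1, 34.8, 55.0 and 36.7 CPM with AAV::eGFP and 146, 171, 163, 139 and 41.4 CPM with AAV::nsHif1a. Libraries 1 to 4 were far above all controls, but library 5, the highest for most other raised genes, lay among them (log2FC 1.77, SE 0.32, limma adjusted p = 0.0075). With the Xist class as a covariate Dio2 was called (log2FC 1.92). It was not called in the 7 libraries with Xist counts or with the γ-crystallin level as a covariate.

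**Figure D2:**
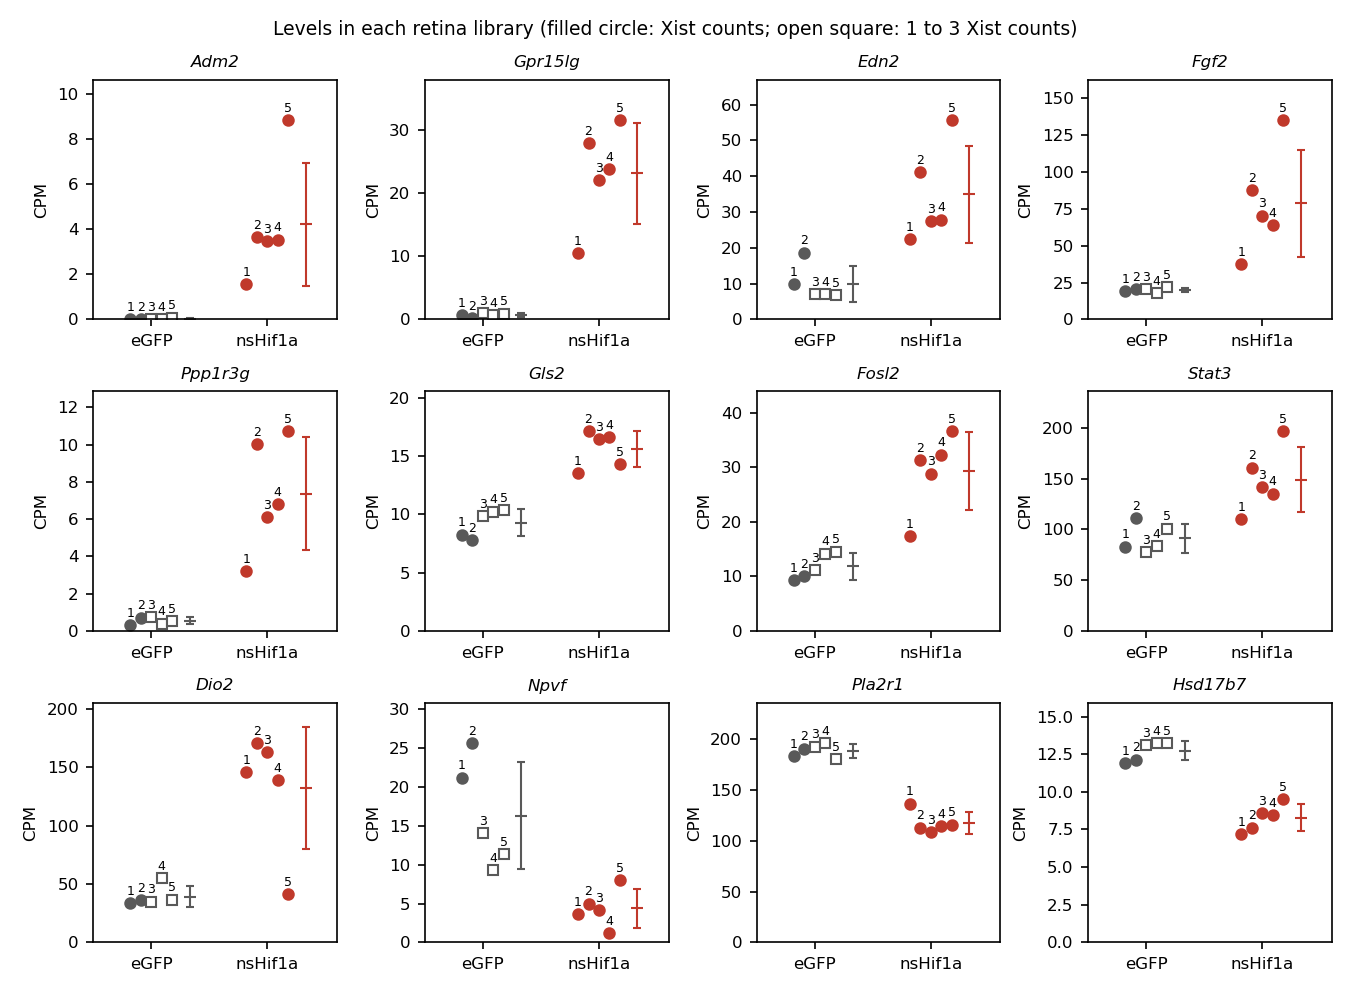
Each panel gives the CPM of a gene in the 5 eGFP and 5 nsHif1a libraries, numbered by replicate, with filled circles for libraries with Xist counts, open squares for those with 1 to 3, and the mean and SD beside the points. Library 1 was the lowest and library 5 the highest treated library for Adm2, Gpr15lg, Edn2, Fgf2, Ppp1r3g and Stat3, while Dio2 in library 5 stood among the controls at 41.4 CPM.

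Immediate early genes, which respond within minutes to stimuli, included several raised members. Of 26 tested, 5 were upregulated (Fosl2, Junb, Maff, Ier3 and Fosb), 22 were higher, and the median log2FC was 0.25. Fosl2, a subunit of AP-1, had 9.25, 10.1, 11.1, 14.1 and 14.5 CPM with AAV::eGFP and 17.4, 31.3, 28.8, 32.3 and 36.6 CPM with AAV::nsHif1a (log2FC 1.27, SE 0.19, limma adjusted p = 0.0026). Junb, its partner, had 14.7, 22.6, 22.4, 27.3 and 23.6 CPM and 31.3, 48.4, 44.5, 46.4 and 58.6 CPM (log2FC 1.05, SE 0.16, limma adjusted p = 0.0031). Neither gene overlapped between groups. Fosl2, Junb and Ier3 were also called with the Xist class as a covariate and in the libraries with Xist counts, whereas Maff and Fosb were called in neither. Fosb was called in 1 of the 10 fits that leave out a library and in neither edgeR nor DESeq2. The median of the list was 0.53 with the covariate and 0.55 in the libraries with Xist counts.

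Single genes of other stress programmes rose. The integrated stress response, which cells use to adapt translation to stress, had 4 upregulated members of 26 (Atf3, Chac1, Trib3, Mthfd2) and a median log2FC of 0.18. Atf3 was the most raised of them, with 3.06, 5.81, 5.45, 4.89 and 4.67 CPM with AAV::eGFP and 7.57, 17.2, 15.3, 14.1 and 24.6 CPM with AAV::nsHif1a (log2FC 1.69, SE 0.29, limma adjusted p = 0.0057). Chac1, Trib3 and Mthfd2 lost their calls when the Xist class was a covariate. For chaperones of the endoplasmic reticulum, 21 of 28 were higher, 5 with an adjusted p-value under 0.05, but 0 were upregulated.

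Of 19 cytosolic heat shock proteins, 17 were higher and 4 upregulated (Hspa1b, Hspa2, Dnajb1 and Hspa8). Hspa8, the constitutive chaperone, had 314, 308, 298, 288 and 308 CPM with AAV::eGFP and 450.4, 422, 494, 469 and 344 CPM with AAV::nsHif1a. It did not overlap between groups, although library 5 was the lowest of the treated (log2FC 0.53, SE 0.07, limma adjusted p = 0.0016). Hspa1b shares 62.3% of its 50-base words with Hspa1a, so reads may be divided between both. Hspa1b rose from 45.2, 48.6, 38.7, 34.6 and 35.7 CPM to 66.6, 64.8, 62.2, 69.3 and 56.4 CPM (log2FC 0.69, limma adjusted p = 0.0012), and Hspa1a had a log2FC of 0.34 (limma adjusted p = 0.085). None of the 4 was called with the Xist class as a covariate, where the list's median was 0.25 against 0.21 in all libraries. Hspa8 and Hspa1b missed only the limit on log2FC there, at 0.4999 and 0.44 (limma adjusted p = 0.016 and 0.0098). Dnajb1 (0.47) and Hspa2 (0.30) did not pass the test there. The list's mean log2 CPM was 6.42, 6.499 and 6.48 in nsHif1a libraries 1, 3 and 4, 6.28 in library 2 and 6.12 in library 5. Lens genes were likewise higher in libraries 1, 3 and 4 (mean log2 CPM 8.19, 8.28 and 8.67) than in libraries 2 (6.02) and 5 (5.33). With the γ-crystallin level as a covariate, Hspa8 and Dnajb1 were not called and Hspa1b and Hspa2 were.

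Of 18 tested p53 targets and growth arrest genes, 3 were upregulated, Cdkn1a, Gadd45g and Gadd45b. Cdkn1a, the inhibitor p21 of the cell cycle, had 4.20, 5.75, 5.45, 5.48 and 4.89 CPM with AAV::eGFP and 6.75, 13.3, 10.7, 14.8 and 18.2 CPM with AAV::nsHif1a, without overlap (log2FC 1.24, SE 0.23, limma adjusted p = 0.0083). Of the 3, Gadd45g alone was called with the Xist class as a covariate, and 0 were called in the libraries with Xist counts, while the log2FC of Cdkn1a was 1.28 with the covariate. Of 28 tested genes of apoptosis and 21 of cell proliferation, 0 were called. Of the clock genes, 3 of 19 were upregulated, Ciart, Per2 and Bhlhe41, which all code for repressors, and 7 were higher at an adjusted p-value under 0.05. Ciart had 10.9, 8.66, 4.70, 5.75 and 4.59 CPM and 14.2, 17.3, 13.4, 16.1 and 22.6 CPM (log2FC 1.35, SE 0.22, limma adjusted p = 0.0039). Within the controls, libraries 1 and 2, which have Xist counts, were the highest for Ciart, and with the class as a covariate the log2FC was 0.74 and none of the 3 clock genes was called. The hour at which retinas were taken is not given in the sources used here.

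A list for signalling through gp130 and STAT3, by which Müller glia and photoreceptors respond to injury, had 6 upregulated members of 20. Its median log2FC was 0.22. The 6 were Bcl3, Lif, Socs3 and Stat3, and also Edn2 and Fgf2, which are not parts of this pathway itself. Both were counted above as angiogenic ligands, and the list was chosen with earlier results of these data known. Lif, a gp130 cytokine of Müller glia, had 1.07, 1.61, 1.24, 0.991 and 1.58 CPM with AAV::eGFP and 1.95, 3.97, 4.47, 4.02 and 3.59 CPM with AAV::nsHif1a (log2FC 1.48, SE 0.25, limma adjusted p = 0.0058). Stat3 had 83.1, 111, 77.4, 83.2 and 101 CPM and 110.3, 161, 142, 135 and 196 CPM, and eGFP library 2 lay just above the lowest treated library (log2FC 0.69, SE 0.13, limma adjusted p = 0.0081). Socs3, the feedback inhibitor of STAT3, had 5.73, 9.69, 6.93, 4.23 and 9.79 CPM and 10.5, 17.8, 13.6, 15.1 and 26.4 CPM and kept apart between groups (log2FC 1.18, SE 0.26, limma adjusted p = 0.021). With the Xist class as a covariate, 1 of the 6, Fgf2, was called, and 0 with the 2 controls that have Xist counts, where Lif had a log2FC of 1.43, Stat3 0.61 and Socs3 1.06.

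Reactive gliosis had a higher median log2FC (0.49, with 20 of 22 members higher) but 1 upregulated gene, Cebpd, a transcription factor of reactive astrocytes. Cebpd had 8.64, 11.95, 12.6, 11.2 and 22.7 CPM and 20.4, 57.3, 35.3, 37.3 and 76.3 CPM, and eGFP library 5 overlapped the treated libraries (log2FC 1.67, SE 0.35, limma adjusted p = 0.017). Gfap, the intermediate filament by which gliosis is usually judged, had 26.5, 39.9, 34.7, 39.0 and 76.1 CPM and 47.2, 72.6, 70.7, 59.9 and 134 CPM and did not pass the test (log2FC 0.73, SE 0.28, limma adjusted p = 0.14). The median of the list was 0.24 with the Xist class as a covariate.

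**Figure D3:**
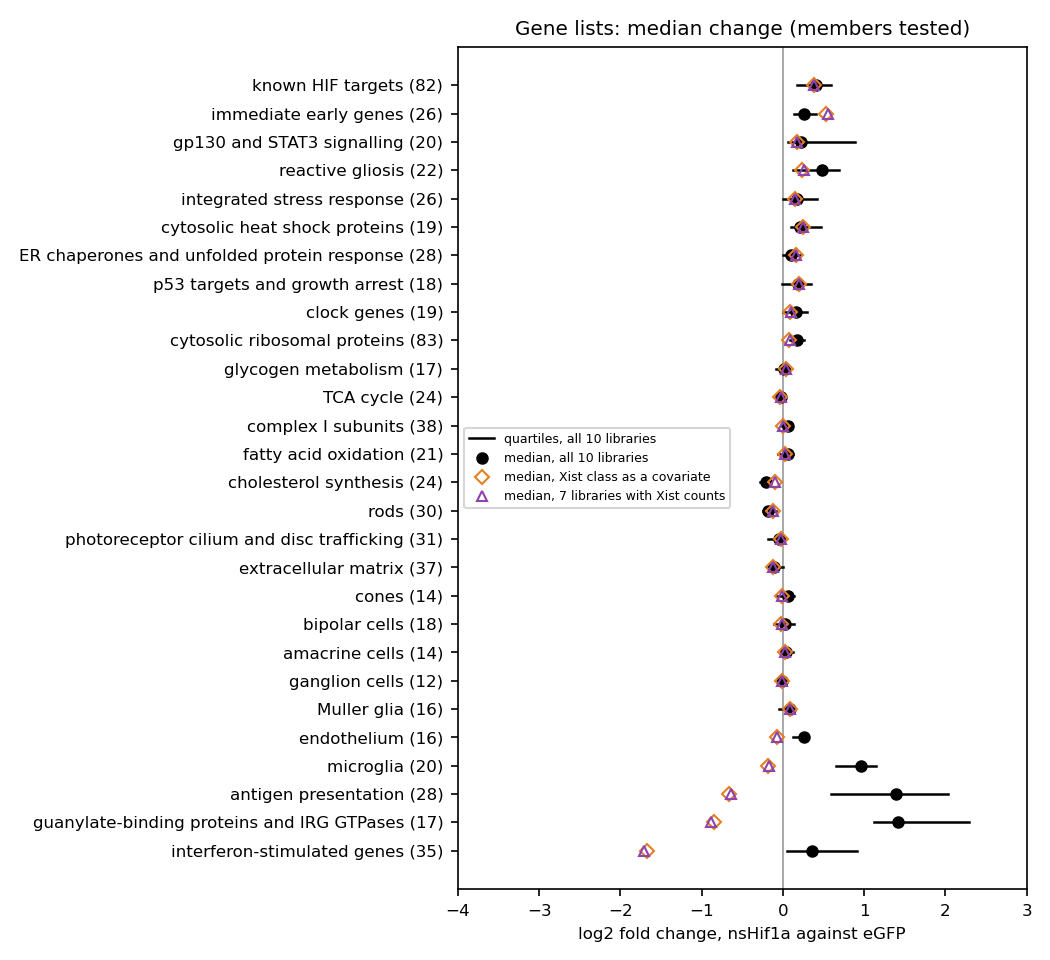
Points show the median log2FC of the tested members of 28 gene lists, with lines for the quartiles, in the fit over all 10 libraries (black), with the Xist class as a covariate (orange) and in the 7 libraries with Xist counts (purple). HIF targets and immediate early genes stay to the right of 0 in the 3 fits, rods and cholesterol synthesis to the left, and the lists of endothelium, microglia, antigen presentation, GTPases and interferon responses change sides.

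The direction of immune genes depended on the control libraries. Of 28 tested genes of antigen presentation 27 were higher, of 20 microglial markers 20, of 17 guanylate-binding and immunity-related GTPases 17 and of 35 interferon-stimulated genes 28, with median log2FC values of 1.40, 0.96, 1.41 and 0.36. Only 2 of these genes were upregulated, H2-Q2 and H2-Ab1 of antigen presentation. H2-K1, a classical MHC class I gene, shows the levels, with 229, 854, 29.8, 17.05 and 31.2 CPM in the eGFP libraries and 114, 279.5, 153, 297 and 346 CPM in the nsHif1a libraries. The nsHif1a libraries were above eGFP libraries 3, 4 and 5, overlapped library 1 and were below library 2 (log2FC 1.63, SE 0.82, limma adjusted p = 0.27). Ifit1, an interferon-stimulated gene, had 134, 34.0, 2.54, 1.12 and 2.03 CPM and 2.02, 9.32, 5.89, 10.7 and 18.4 CPM, with the highest values in eGFP libraries 1 and 2.

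The mean log2 CPM of the interferon list was 4.69, 4.50, 1.48, 0.91 and 1.17 in eGFP libraries 1 to 5 and 1.94, 2.86, 2.77, 3.42 and 4.23 in nsHif1a libraries 1 to 5. The controls thus fell into the 2 Xist classes on this measure, with the treated libraries in between. With the Xist class as a covariate, the median log2FC became -1.67 for interferon-stimulated genes, with 20 of 35 downregulated, -0.66 for antigen presentation, -0.19 for microglia and -0.85 for the GTPases. In the 7 libraries with Xist counts, which hold 2 controls, the values were -1.71 (12 downregulated), -0.64, -0.18 and -0.88. In contrast, without eGFP library 2, 16 genes of antigen presentation and 7 of microglia were upregulated, with medians of 2.27 and 1.33. The vector, the Xist class and the state of eGFP libraries 1 and 2 cannot be told apart for these lists.

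H2-Q2 kept apart between groups. It had 0.229, 0.969, 0.186, 0.0661 and 0.0753 CPM with AAV::eGFP and 2.62, 7.18, 5.32, 6.54 and 8.402 CPM with AAV::nsHif1a, and every treated library was above eGFP library 2 (log2FC 4.83, SE 0.62, limma adjusted p = 0.0013). The log2FC was 3.44 with the Xist class as a covariate, where it was still called, and 3.44 in the 7 libraries with Xist counts, where it was not. H2-T13, another class I gene, also kept apart, with 1.22, 1.42, 1.05, 0.925 and 0.753 CPM and 2.25, 6.36, 7.02, 5.39 and 7.76 CPM (log2FC 2.43, SE 0.40, limma adjusted p = 0.0043). H2-Ab1, of MHC class II, did not, with 5.58, 63.4, 3.40, 2.51 and 5.12 CPM and 17.4, 40.7, 30.4, 43.5 and 59.4 CPM, and its log2FC of 2.45 became 0.79 with the covariate. Gimap3, of lymphocytes, was at 0 in eGFP libraries 3, 4 and 5 and at 1.94 CPM in eGFP library 2, above the 0.225 to 1.57 CPM of the treated libraries.

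**Figure D4:**
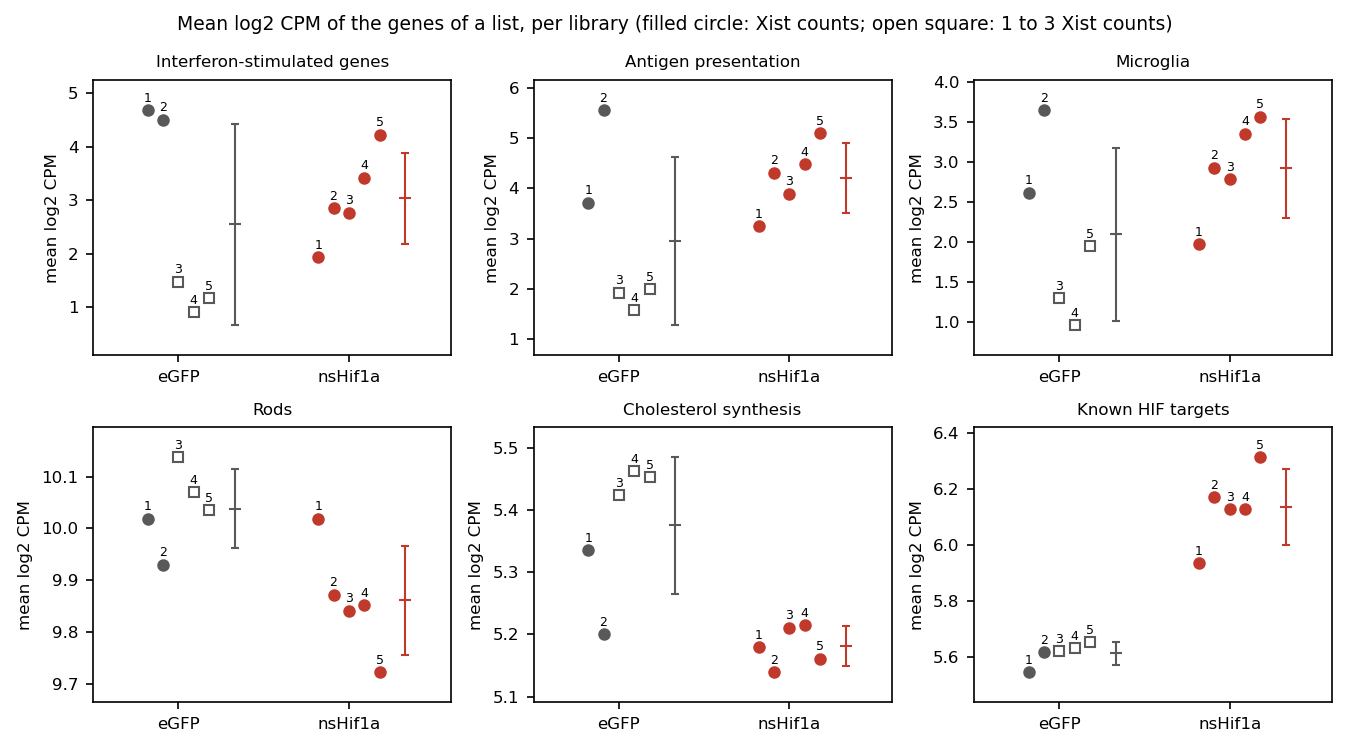
The mean log2 CPM of the genes of 6 lists is given for each library, numbered by replicate, with filled circles for libraries with Xist counts, open squares for those with 1 to 3, and the mean and SD beside the points. The interferon list separates eGFP libraries 1 and 2 (4.69 and 4.50) from 3 to 5 (0.91 to 1.48), rods are lower in nsHif1a libraries 2 to 5 than in every control, and the HIF targets do not overlap between groups.

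Genes of rods were lower as a group, although 0 of them passed the limit on log2FC. All 30 tested rod genes were lower with AAV::nsHif1a, 9 of these with an adjusted p-value under 0.05, and the median log2FC was -0.18. Gnat1, the rod transducin, had 10588, 9222, 11103, 10583 and 10479 CPM with AAV::eGFP and 9738, 8249.9, 8629.5, 8339.6 and 6921 CPM with AAV::nsHif1a (log2FC -0.31, SE 0.07, limma adjusted p = 0.021). For this gene nsHif1a library 1 lay within the controls, libraries 2 to 4 below them and library 5 was the lowest. In bulk tissue, fewer rods and less of these transcripts per rod cannot be told apart. With the Xist class as a covariate the median was -0.13, 6 of the 30 genes were higher, and 0 rod genes had an adjusted p-value under 0.05.

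nsHif1a library 1, the lowest treated library for HIF targets, was the highest for rods, and library 5, the highest for HIF targets, was the lowest for rods. The summed rod genes were 70017 to 78362 CPM in the eGFP libraries, and 72950.3 CPM in nsHif1a library 1, 63466 to 64492 CPM in libraries 2 to 4 and 56879.8 CPM in library 5. Genes of cilia and disc trafficking followed less clearly, with 22 of 31 lower, 5 of these with an adjusted p-value under 0.05, and a median log2FC of -0.05. Of 20 photoreceptor transcription factors 3 were lower at that limit, and of 26 ribbon synapse genes 4 were lower and 2 higher. With the Xist class as a covariate, 0 of the transcription factors passed it. Nrl, Nr2e3 and Samd7 of the transcription factors and Rp1 and Prom1 of the cilium list were also members of the rod list. The mitochondrially encoded genes were lower in 12 of 13 cases with a median of -0.06.

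Lists of other retinal cells had medians nearer to that of all genes. The values were 0.07 for 14 cone genes, 0.03 for 18 bipolar, 0.04 for 14 amacrine, 0.01 for 6 horizontal and -0.01 for 12 ganglion cell genes, and 0.09 for 16 genes of Müller glia. Gnb3, a transducin subunit of cones and ON bipolar cells, was the upregulated gene of the cone list, with 407, 428, 369, 396 and 385 CPM and 477, 648, 505, 573 and 641 CPM (log2FC 0.52, SE 0.08, limma adjusted p = 0.0033). Ndp, which codes for norrin, a glial signal for retinal vessels, was the upregulated gene on the X chromosome, with 9.09, 8.85, 9.10, 8.99 and 9.11 CPM and 12.5, 13.6, 12.8, 13.6 and 11.4 CPM (log2FC 0.51, SE 0.07, limma adjusted p = 0.0019). Genes on the Y chromosome did not pass the filter on low counts, so that 0 were tested.

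Few vascular markers passed the test. Of 16 endothelial genes 14 were higher with a median log2FC of 0.27, 1 with an adjusted p-value under 0.05 and 0 upregulated. Kdr, the VEGF receptor, had 237, 216, 192, 187 and 207 CPM and 222, 259, 233, 258 and 278 CPM, with eGFP library 1 inside the treated range (log2FC 0.26, SE 0.07, limma adjusted p = 0.049). The median of the endothelial list was -0.08 with the Xist class as a covariate. Mural cells and tip cells had medians of 0.15 and 0.17 with 0 called.

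Markers of tissue from outside the neural retina were examined in the same way. Lens genes were higher in 13 of 14 cases, with a median log2FC of 1.80 and 0 called. Their sums were 1279 to 4430.1 CPM in the controls and 1426 to 22566 CPM in the treated libraries, so the range in the treated group was wide. For the 12 genes of retinal pigment epithelium (RPE) and melanocytes, 9 were lower with a median of -0.20, and the median was 0.77 with the Xist class as a covariate. Their part in the results above was not tested. With the γ-crystallin level as a covariate, the call held for 117 upregulated genes of 146 and for 17 downregulated genes of 45.

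Genes of cholesterol synthesis were mostly lower. Of 24 genes tested 22 were lower, 7 of these with an adjusted p-value under 0.05, and the median log2FC was -0.20. Hsd17b7 (GRCm39 chromosome 1, 169777093 to 169796813, minus strand), an enzyme of the post-squalene steps, had 11.9, 12.1, 13.1, 13.2 and 13.2 CPM with AAV::eGFP and 7.20, 7.62, 8.58, 8.45 and 9.49 CPM with AAV::nsHif1a, without overlap (log2FC -0.65, SE 0.08, limma adjusted p = 0.0013). Insig1, a sterol-responsive regulator of the pathway, had 107, 92.8, 115, 119.9 and 116 CPM and 80.2, 76.7, 85.8, 80.9 and 73.8 CPM, below the limit on log2FC but without overlap (log2FC -0.47, SE 0.07, limma adjusted p = 0.0019). eGFP libraries 1 and 2 were the lowest controls for both genes. With the Xist class as a covariate the median was -0.10 and Hsd17b7 remained called at -0.56.

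Genes of protein synthesis shifted by small amounts. Cytosolic ribosomal proteins were higher for 75 of 83 genes with a median log2FC of 0.18, but 6 had an adjusted p-value under 0.05 and 1, Rpl38, was called, with 5.502, 5.10, 4.15, 4.89 and 4.67 CPM and 7.05, 9.07, 6.95, 7.91 and 5.20 CPM. The median was 0.08 with the Xist class as a covariate. The mean log2 CPM of the list was 4.89, 5.002 and 5.09 in nsHif1a libraries 1, 3 and 4 and 4.82 and 4.72 in libraries 2 and 5, the same order as that of the lens genes. Rpl38 was not called with the γ-crystallin level or the Xist class as a covariate, and was called in 5 of the 10 fits that leave out a library. Mitochondrial ribosomal proteins, proteasome subunits and translation factors had medians of 0.00192, 0.05 and 0.03 with 0 called.

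Of the 45 downregulated genes, 3 belonged to a list, among them Hsd17b7 and the zinc finger gene Zfp820. Npvf (GRCm39 chromosome 6, 50627652 to 50631419, minus strand), which codes for the RFamide peptides RFRP, had the largest fall, with 21.2, 25.6, 14.05, 9.32 and 11.4 CPM in the controls and 3.60, 4.98, 4.19, 1.16 and 8.02 CPM in the treated libraries. All treated libraries were below all controls, and the controls with Xist counts were the highest (log2FC -1.91, SE 0.42, limma adjusted p = 0.021). Its log2FC was -2.60 with the Xist class as a covariate, where it was called. With the γ-crystallin level as a covariate it was not called. Defb9, a defensin, fell from 1.45, 1.74, 0.681, 0.991 and 1.05 CPM to 0.225, 0.378, 0.426, 0.0682 and 0.577 CPM without overlap but near the floor of 3 counts (log2FC -1.78, limma adjusted p = 0.026). Defb9 was called in 7 of the 10 fits that leave out a library and not with the γ-crystallin level as a covariate. Col19a1, a collagen, had 1.68, 1.42, 3.22, 2.38 and 2.41 CPM and 0.900, 0.693, 0.851, 0.954 and 1.99 CPM, with an overlap at nsHif1a library 5 (log2FC -1.20, limma adjusted p = 0.032). It was called in 4 of the 10 fits that leave out a library and not in edgeR or DESeq2, and its log2FC was -0.72 with the Xist class as a covariate, where it was not called.

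The falls with the smallest adjusted p-values were of moderate size. Pla2r1 (GRCm39 chromosome 2, 60247887 to 60383654, minus strand), a receptor for secreted phospholipases A2, had 183, 190.3, 192, 196 and 180.3 CPM with AAV::eGFP and 136, 113, 109, 114 and 116 CPM with AAV::nsHif1a (log2FC -0.70, SE 0.05, limma adjusted p = 1.5e-04). Ccn4 (GRCm39 chromosome 15, 66763060 to 66795050, plus strand), a WNT-induced matricellular protein, had 42.0, 31.98, 43.4, 42.2 and 39.7 CPM and 24.2, 22.8, 19.4, 19.8 and 21.8 CPM (log2FC -0.89, SE 0.09, limma adjusted p = 2.7e-04). Neither gene overlapped between groups, and for Pla2r1 nsHif1a library 1 was the treated library nearest to the controls. Among the 25 largest falls were also Fndc1 (log2FC -0.79) and Scube2 (-0.79), both for extracellular proteins, Glb1l3 (a β-galactosidase relative, -0.78), Traf3ip3 (-0.76), Cdcp3 (-0.76), Dleu7 (-0.78), the melanocortin receptor Mc1r (-0.69), the transglutaminase Tgm3 (-0.71), the cilium gene Cfap77 (-0.69) and the centromere gene Cenpu (-0.95), which was called in 0 of the 10 fits that leave out a library. Others of the 25 were Ccdc60, Pbld2, Rimbp3, Gm5460, Rpp40, Pabpn1l, Gm37240, 1700109H08Rik and Ogdhl, with log2FC values from -0.97 to -0.69. Several of these calls were also unstable. Gm37240 was called in 1 of the 10 fits, Cfap77, Pbld2, Pabpn1l and 1700109H08Rik in 3 and Rimbp3 in 4. Cenpu, Gm37240, Pbld2, Pabpn1l and 1700109H08Rik were called in neither edgeR nor DESeq2. Ogdhl, an isoform of the oxoglutarate dehydrogenase, had 56.2, 53.2, 75.5, 105 and 85.4 CPM and 47.5, 44.8, 48.0, 46.6 and 44.4 CPM. eGFP libraries 3 to 5 were the highest, and the log2FC was -0.24 with the Xist class as a covariate. Some enzymes among the remaining falls were grouped after their values were seen. Prodh (proline dehydrogenase) had a log2FC of -0.66, Sirt5 (a mitochondrial deacylase) of -0.58 and Wars2 (a mitochondrial tRNA synthetase) of -0.54. Wars2 was called in neither edgeR nor DESeq2.

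Smtnl2 (GRCm39 chromosome 11, 72279984 to 72302572, minus strand), coding for a smoothelin-like actin-binding protein, had 1.83, 2.003, 1.49, 1.78 and 2.183 CPM with AAV::eGFP and 10.3, 22.2, 18.9, 19.6 and 28.5 CPM with AAV::nsHif1a (log2FC 3.35, SE 0.37, limma adjusted p = 4.7e-04). Muc2, a secreted mucin, had 9.02, 13.9, 9.72, 12.5 and 10.6 CPM and 28.1, 36.9, 35.4, 38.1 and 68.3 CPM (log2FC 1.80, SE 0.21, limma adjusted p = 7.5e-04). For Smtnl2 and Muc2 no treated library reached down to the controls. The remaining genes among the 25 largest increases outside the HIF list were Ccdc194 (log2FC 2.60), Gimap1 (2.176), H2-T5 (2.03), the cytokine gene Il16 (1.82), Bcl3 (1.67), Lad1 (1.62), Garin1a (1.55), Prelid2 (1.54) and the pancreatic polypeptide receptor Npy4r (1.496). None of these 9 was called with the Xist class as a covariate or in the libraries with Xist counts. With the covariate the log2FC was 0.68 for Gimap1, 1.04 for H2-T5 and 0.72 for Il16. Gimap1 and Il16 were called in neither edgeR nor DESeq2, and H2-T5 and Npy4r were not called in edgeR.

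Genes of neuronal or cytoskeletal function with small adjusted p-values were named after their values were seen. Neurl1a, a ubiquitin ligase of neurons, had 67.3, 72.6, 58.4, 64.2 and 64.4 CPM with AAV::eGFP and 98.4, 112, 99.9, 113 and 107 CPM with AAV::nsHif1a (log2FC 0.70, SE 0.06, limma adjusted p = 1.5e-04). Agtpbp1, which removes glutamates from tubulin and whose loss causes photoreceptor degeneration in mice, had 189.5, 203, 204, 193 and 200.3 CPM and 248, 315, 278, 299 and 353 CPM (log2FC 0.58, SE 0.07, limma adjusted p = 7.9e-04). Espn, an actin-bundling protein, had a log2FC of 1.26 (SE 0.15, limma adjusted p = 7.3e-04). Other raised genes outside the lists also had a log2FC above 1. They were Tmem26, Tnnt2, Cryzl2, Prph, Tnfsf9, Spidr, Tmem252, Dennd2c, Dlx3, Lrrc2, Fhad1, Plcxd1, Col26a1, Syce2 and 6820408C15Rik. Of these, Tnfsf9, Plcxd1 and Syce2 alone were called with the Xist class as a covariate, and none in the libraries with Xist counts. Of the 10 fits that leave out a library, Col26a1 was called in 1, Tmem252 and 6820408C15Rik in 2 and Dennd2c and Dlx3 in 3. Tnnt2, Fhad1 and Prph were called in 5.

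Further lists held single called genes. Histones had 2 of 37 upregulated, H3c4 (log2FC 0.98) and H4c3 (0.91), and a median of 0.20. Guidance molecules had 2 of 67, Efna3 (0.51), an ephrin, and Plxnd1 (0.63), a semaphorin receptor, and a median of 0.01. Nfkbiz (0.72), a nuclear regulator of NF-kB targets, was the upregulated gene of 25 inflammatory genes, and Fgf11 (0.60) accompanied Fgf2 among 22 fibroblast growth factors and receptors. Extracellular matrix genes were lower in 26 of 37 cases with a median of -0.11 and 0 called. Of all 191 called genes, 5 shared more than 20% of their 50-base words with another gene, so that their counts are uncertain. They were Phospho1 (28.8%), Hspa1b (62.3%), Gm57854 (62.6%), Gm14322 (76.7%) and Gm37240 (57.2%).

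Calls were finally compared across fits, gene by gene. All 146 upregulated and all 45 downregulated genes kept their direction with the Xist class as a covariate and in the 7 libraries with Xist counts. Both of these fits rest on eGFP libraries 1 and 2 as the controls, so they count as 1 check of direction. Their calls held in fewer cases, 64 and 18 with the covariate and 38 and 14 in the 7 libraries. Called in these 2 fits, in all 10 fits without a library, in edgeR and in DESeq2 were 35 upregulated genes, 16 of them HIF targets, and 9 downregulated genes. The 19 outside the HIF list were Adm2, Smtnl2, Uts2r, Muc2, Fosl2, Espn, Junb, Atg9b, Tbl2, Vwa1, Gls2, Ier3, Jmjd6, Neurl1a, Samd1, Slc19a2, Fgf11, Agtpbp1 and Eid1, with log2FC values from 6.25 to 0.54. Among the 9 downregulated were Ccn4, Fndc1, Dleu7, Cdcp3, Traf3ip3, Pla2r1, Hsd17b7 and Glb1l2, from -0.89 to -0.54. None of the 19 belonged to the lists of interferon-stimulated genes, antigen presentation or microglia, but the selection left little room for them. Of these lists, only H2-Q2 and H2-Ab1 were among the 122 upregulated genes outside the HIF list. Neither was called in the 7 libraries with Xist counts, which the selection required. When single libraries were left out, 89 of the 146 and 14 of the 45 were called in all 10 fits.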

How the data were processed

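Total RNA of whole retinas was sequenced after a stranded mRNA preparation. Alignment by the authors was done with Rsubread on the GRCm39 assembly. Strand-specific assignment to genes used featureCounts and a GENCODE basic annotation, and the deposited values are unnormalized counts. All 10 columns mapped to a labelled sample, and 0 columns belonged to no sample. GENCODE annotation of GRCm39 gave biotypes and coordinates.

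Genes were filtered with filterByExpr (minimum count 10) of edgeR 4.0.16, which left 18859, scaled by TMM and tested with voomWithQualityWeights and limma 3.58.1 in R 4.3.3, on the 10 retina libraries alone with no covariate. P-values were adjusted by Benjamini-Hochberg over all genes tested. A gene was called at an adjusted p-value under 0.05 and an absolute log2FC above 0.5. Error in the text is the standard error of the log2FC (SE, n = 5 per group). The sources do not say how many animals gave each library, so p-values measure the spread between these libraries.

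The members and gene lists were chosen with earlier results of these data known. Named genes were the 25 highest and 25 lowest called protein-coding genes outside the HIF list and off the sex chromosomes, the first 4 and every called member of each list, and Hif1a. Some genes that this rule names are not reported here. The fit was tested on simulated counts, where 161 of 200 genes changed 2-fold (80.5%) were called among 18608. The fit was repeated in DESeq2 1.42.0 and in edgeR by its quasi-likelihood method, with other scalings, filters and thresholds, covariates for the Xist class and γ-crystallins, a replicate block, and leaving out each library. Replicate numbers did not pair the libraries.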

Additional observations from a re-analysis of the deposited data

Results flagged for a closer look

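Of 142 groups of 5 libraries examined for the values described above, 18 had a library whose gap to its nearest neighbour took more than 0.71 of the range of its group (Dixon's 95% limit for 5 values). With that limit, chance alone gives such a gap in about 5% of groups.

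In eGFP library 2, this was the case for Egln3 (11.95 CPM), Edn2 (18.7 CPM), H2-Q2 (0.969 CPM), H2-Ab1 (63.4 CPM), Gimap3 (1.94 CPM) and H2-K1 (854 CPM), all above the other controls. In the other controls it was the case for Ifit1 (134 CPM) and, on the low side, Ppp1r3b (3.44 CPM) in library 1, for Dio2 (55.0 CPM) and, on the low side, the mean log2 CPM of the Müller glia list (7.44) in library 4, and for Adm2 (0.0753 CPM), Cebpd (22.7 CPM) and Gfap (76.1 CPM) in library 5. In nsHif1a library 5, Adm2 (8.85 CPM), Muc2 (68.3 CPM) and Col19a1 (1.99 CPM) were above the other treated libraries and Dio2 (41.4 CPM) below them. In nsHif1a library 1, Pla2r1 (136 CPM) was above the others.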

How the results depend on the processing

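The counts of called genes moved with the Xist class and with the limit on log2FC. With the class as a covariate, 85 protein-coding genes were upregulated (62 outside the HIF list) and 90 downregulated, and in the 7 libraries with Xist counts 50 were upregulated (31 outside the list). Without 1 library, the upregulated ranged from 110 to 232 (86 to 207 outside the list) and the downregulated from 27 to 56. The count of 232 was that without eGFP library 2. An absolute log2FC above 1 left 59 upregulated (51 outside the list) and 3 downregulated genes, and no limit on log2FC gave 496 (444) and 293. The downregulated numbered 29 without the count filter, 29 without quality weights and 21 with a replicate block. Same-numbered libraries correlated at -0.148 to 0.138, so that the numbers did not pair them. Over the other alternatives, counts stayed within 1.5 times. With DESeq2, 170 genes were upregulated and 33 downregulated, and with edgeR 124 and 30. The cause was not tested.

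In whole immune lists many genes reversed with the Xist class as a covariate. Higher were then 1 of 35 interferon-stimulated genes, 0 of 17 GTPases and 1 of 20 microglial markers, against 28, 17 and 20 in all libraries. Single genes were followed for 201 genes only, the called ones and others named here. Among these 201, values reversed for 4 immune genes that were not called. With the Xist class as a covariate and in the 7 libraries, the log2FC was -1.04 and -1.03 for H2-K1, -1.28 and -1.27 for B2m, and -0.30 and -0.29 for Csf1r. For Ifit1 it was -3.13 in both Xist settings, -1.89 in edgeR, -1.91 in DESeq2, -1.80 with the replicate block, -0.33, -0.97 and -0.92 without eGFP library 3, 4 or 5, and -0.05 without nsHif1a library 5, against 1.41 without eGFP library 1. The depth limits genes near the floor of 0.186 to 0.233 CPM, such as Adm2 and Gimap3 in the controls.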
